A study of Mus musculus with 12 samples.

Results

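The genes described here are the structural genes of the inner root sheath and companion layer of the hair follicle. They are the type I keratins Krt25, Krt26, Krt27 and Krt28, the type II keratins Krt71, Krt72, Krt73, Krt74 and Krt75, and Tchh, which encodes trichohyalin. They were chosen by name, 10 of the 23234 gene symbols in the tables. Of these, 9 were listed under their own symbol, and Krt72 was listed as Krt72-ps, a synonym in the RefSeq gene table. RefSeq classes Krt74 as a transcribed pseudogene in the mouse.

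The RNA came from the ears of C57BL/6J mice, 8 to 12 weeks old, and was sequenced as 4 groups of 3 libraries. Wild type ears were left untreated (WT_untreated), received phosphate-buffered saline (WT_PBS), or received 100 mg of Oxarol ointment with 2.5 µg of maxacalcitol, an active vitamin D3 analogue (WT_Oxarol). The fourth group, VDRcKO_Oxarol, received the same ointment and carries K5-Cre;VDR f/f, in which Cre driven by the keratin 5 promoter deletes part of the vitamin D receptor gene in basal keratinocytes and their descendants. Treated ears were collected 1 day after application. No group holds VDRcKO ears without ointment, so a difference between VDRcKO_Oxarol and untreated or PBS-treated wild type skin holds genotype and ointment together.

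The inner root sheath is the set of concentric layers, Henle's layer, Huxley's layer and cuticle, that moulds the growing hair and breaks down before the hair leaves the skin. The companion layer lies just outside it and slides with it along the outer root sheath. Keratins work as pairs of a type I and a type II protein. Krt25, Krt27, Krt28 and Krt71 are made in every inner root sheath layer, Krt26, Krt72 and Krt73 mainly in its cuticle, and Krt75 is the keratin of the companion layer. Trichohyalin is the granule protein in which these filaments are embedded, after peptidylarginine deiminases convert its arginines to citrulline and transglutaminases cross-link it. These genes are made mainly in follicles that are growing a hair, and mouse alleles of Krt25 and Krt71 are known for wavy coats.

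The 8 inner root sheath keratins lie in 2 runs of neighbouring genes. Krt25, Krt26, Krt27 and Krt28 follow each other on chromosome 11, with Krt24 and Krt10 at the ends of the run. Krt71, Krt74, Krt72 and Krt73 follow each other on chromosome 15, between Krt5 and Krt2. Krt75 is also on chromosome 15, and Tchh lies on chromosome 3 between Rptn and Tchhl1. RefSeq promoter windows, which run from 250 bases before to 50 bases after each start, were found for 9 members; Krt74 had none.

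The window before the start of Krt71, the most abundant type II member in VDRcKO_Oxarol, is shown because it holds 2 of the motifs searched. Capitals mark AGATAA, of the kind that Gata3 and related factors bind, and the TATA-box letters TATAAA further along. It is chr15:101743098-101743347 on the minus strand of GRCm38.p6.
Krt71: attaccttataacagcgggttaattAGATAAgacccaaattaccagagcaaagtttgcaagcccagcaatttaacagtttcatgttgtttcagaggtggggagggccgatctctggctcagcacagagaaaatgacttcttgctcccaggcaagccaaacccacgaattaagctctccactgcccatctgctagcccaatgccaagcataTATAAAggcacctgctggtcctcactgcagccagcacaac
Stretches of 40 bases around AGATAA in the 4 other members that hold it are shown so that its surroundings can be compared. They are chr11:99323123-99323162 (minus strand), chr11:99351279-99351318 (minus), chr15:101802520-101802559 (minus) and chr3:93442159-93442198 (plus), in the order shown, with AGATAA in capitals.
Krt25: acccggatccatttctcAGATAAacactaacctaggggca
Krt27: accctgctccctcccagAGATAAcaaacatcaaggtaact
Krt73: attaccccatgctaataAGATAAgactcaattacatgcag
Tchh: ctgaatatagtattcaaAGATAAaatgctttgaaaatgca

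AGATAA, searched on both strands, was found in 5 of the 9 members' windows and in 11.2% of the 32851 RefSeq windows of the same length. The motif began 225 bases before the start in Krt71, 194 in Krt25, 183 in Krt27, 182 in Krt73 and 154 in Tchh. TATAAA was found in 7 of the 9 members' windows, in Krt72 on the opposite strand, and in 13.6% of all windows. CTTTGA, of the Lef1/Tcf type, was found in Krt28 and Tchh, against 16.0% of all windows. Repeats of the vitamin D receptor type (AGGTCA or GGTTCA repeated after 3 bases, or a mixed repeat) were found in none of the 9 members' windows and in 0.00609%, 0.00609% and 0.0396% of all windows. AGATAA and TATAAA share letters but overlapped in none of the members' windows. Each match is a description of these letters, not evidence that a factor binds.

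Some features of the whole series bear on every value below. The tables listed 17323 to 19478 symbols above 0 per library. Depth was estimated relative to WT_PBS replicate 3 from the step size of low values, in a search that let no library be deeper. By this estimate 7 of the other 11 held 0.0899 to 0.212 of the reads of WT_PBS replicate 3. For these 7, an answer off by a factor of 2 scored 0.797 to 0.888 of the best. The other 4 (WT_Oxarol replicate 3 and all of VDRcKO_Oxarol) lay beyond the largest depth ratio that the estimate recovered in simulated reads. Each library lists between 4 and 40 symbols at 0 whose median over the 12 libraries is at least 10 FPKM, so a 0 may be a failed estimate; none of these symbols is a member. Vdr itself was 23.6, 25.04 and 17.98 FPKM in the libraries labelled VDRcKO_Oxarol and 4.87 to 10.1 FPKM in wild type. That goes against the direction of the label, although a gene-level value includes exons that Cre leaves in place and does not check the deletion. Cyp24a1, the receptor's target that degrades active vitamin D, was 66.2, 599 and 458 FPKM in WT_Oxarol and 0, 0.271 and 0.175 FPKM in the libraries labelled VDRcKO_Oxarol. The library codes form 2 series, which the labels do not call batches: replicates 1 and 2 of each wild type group are in the first, and replicate 3 of each wild type group and all VDRcKO_Oxarol libraries are in the second. The labels do not say that the libraries of a group are separate animals, so the p-values reflect the spread among these samples alone, and that spread may be technical.

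Levels are given as FPKM, the fragments of a gene divided by its transcript length and by the fragments mapped, a scale per length on which genes can be compared. Across the 12 libraries the members were low in most wild type libraries and highest in VDRcKO_Oxarol replicates 1 and 2. VDRcKO_Oxarol replicate 3, WT_untreated replicate 3 and WT_PBS replicate 3 lay between, with mean log2 values of the tested members, centred over the libraries, of 1.05, 1.07 and 1.44. VDRcKO_Oxarol replicate 1 was the highest library for 10 of 10 members and VDRcKO_Oxarol replicate 2 the second for 10 of 10. For 9 of 10 the top 5 libraries were the 3 of VDRcKO_Oxarol with WT_untreated replicate 3 and WT_PBS replicate 3. The exception was Krt74.

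**Figure D1:**
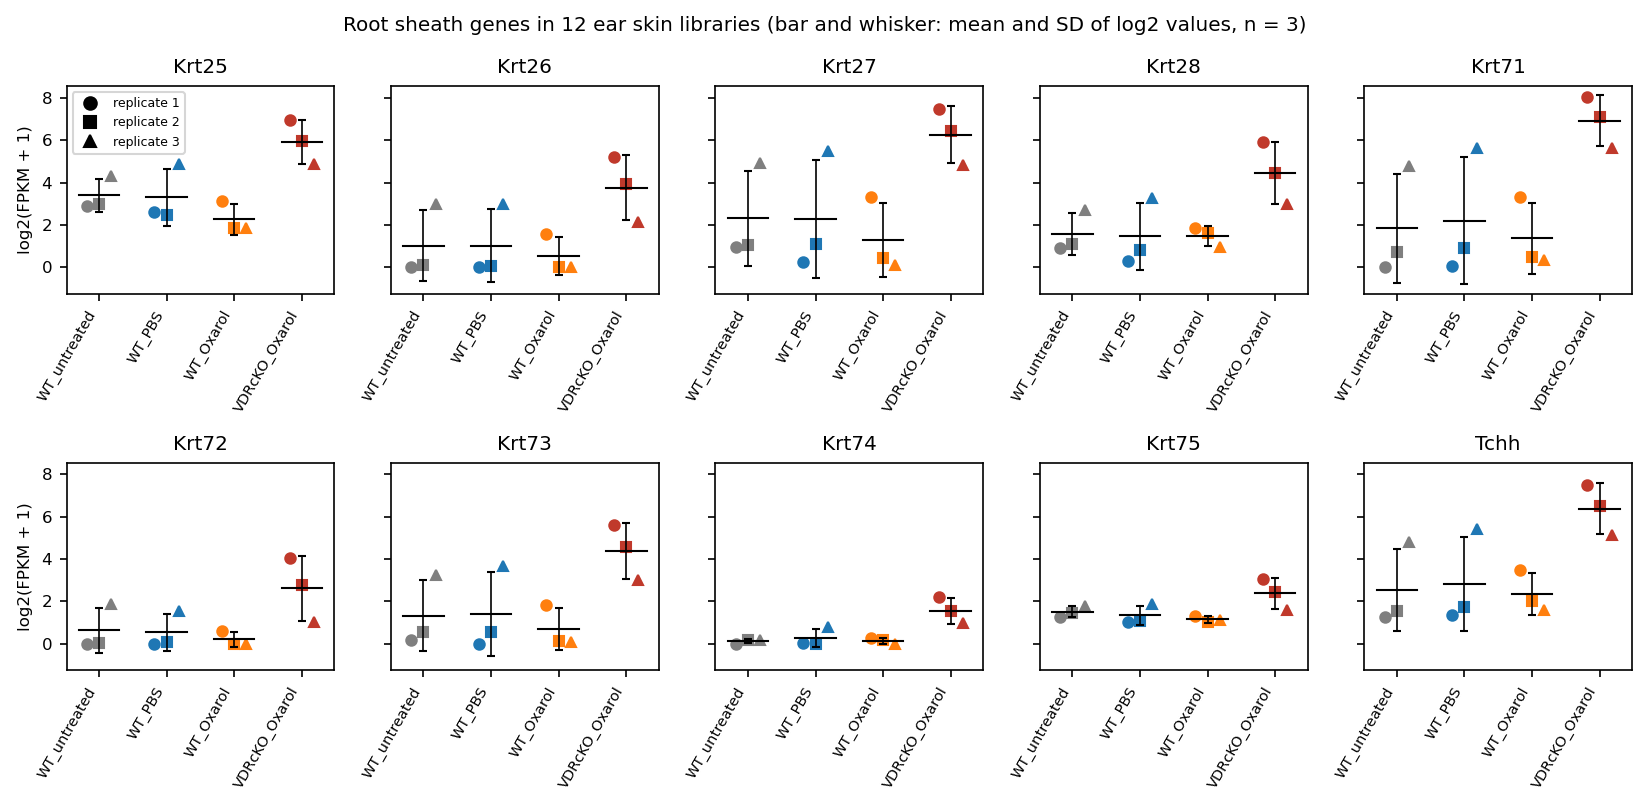
Level of each of the 10 genes, as log2(FPKM + 1), in the 12 libraries; points are libraries, shapes are replicate numbers, and the bar and whisker are the mean and SD of the log2 values (n = 3). VDRcKO_Oxarol replicate 1 is the highest point in each panel, and replicate 3 of the WT_untreated and WT_PBS groups lies above replicates 1 and 2 of those groups, except in WT_untreated for Krt74.

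Krt71, the type II keratin of every inner root sheath layer, was the most abundant member in each VDRcKO_Oxarol library. It stood at 259.9, 134 and 49.2 FPKM in VDRcKO_Oxarol, at 8.91, 0.423 and 0.251 in WT_Oxarol, at 0.0465, 0.868 and 48.2 in WT_PBS and at 0, 0.665 and 26.7 in WT_untreated. The 3 VDRcKO_Oxarol libraries lay above all wild type libraries, but the lowest of them was only just above WT_PBS replicate 3. Its mean was 148 ± 106 (SD, n = 3) in VDRcKO_Oxarol and 3.19 ± 4.95 (SD, n = 3) in WT_Oxarol. The other type II keratins of the inner root sheath stood at lower levels. Krt73 reached 48.3, 22.7 and 6.98 FPKM in VDRcKO_Oxarol, against 2.60, 0.0970 and 0.0635 in WT_Oxarol, 0, 0.475 and 11.9 in WT_PBS and 0.131, 0.462 and 8.43 in WT_untreated. Krt73 overlapped between VDRcKO_Oxarol and both other wild type groups, through replicate 3 of each.

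Krt72 was listed at 15.8, 5.80 and 1.05 FPKM in VDRcKO_Oxarol and at 0.535, 0 and 0 in WT_Oxarol. It reached 1.89 FPKM in WT_PBS replicate 3 and 2.65 in WT_untreated replicate 3, both above VDRcKO_Oxarol replicate 3. Krt74 was the lowest member, at 3.61, 1.90 and 0.962 FPKM in VDRcKO_Oxarol and at most 0.720 FPKM in wild type. Its groups did not overlap, but it reached 1 FPKM in fewer than 3 libraries and was not tested.

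Among the type I keratins, Krt27 was the most abundant in VDRcKO_Oxarol replicates 1 and 2. Krt27 stood at 177, 87.0 and 27.1 FPKM there, at 8.89, 0.354 and 0.0927 in WT_Oxarol, at 0.200, 1.14 and 43.6 in WT_PBS and at 0.957, 1.06 and 29.2 in WT_untreated. Thus VDRcKO_Oxarol replicate 3 lay below replicate 3 of both WT_PBS and WT_untreated. Krt25, its neighbour, was 123.9, 61.2 and 28.4 FPKM in VDRcKO_Oxarol, 7.70, 2.60 and 2.57 in WT_Oxarol, 5.06, 4.57 and 28.2 in WT_PBS and 6.49, 6.86 and 18.7 in WT_untreated. Krt25 was above every wild type library in VDRcKO_Oxarol, by 28.4 against 28.2 FPKM at the closest point. Krt25 also had the highest floor of the 10 members: it never fell below 2.57 FPKM. Tchh and Krt75 likewise stayed above 1 FPKM in every library, with lowest values of 1.40 and 1.02.

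Krt28 was 59.98, 21.1 and 6.98 FPKM in VDRcKO_Oxarol, 2.61, 2.05 and 0.963 in WT_Oxarol, 0.214, 0.785 and 8.56 in WT_PBS and 0.895, 1.17 and 5.53 in WT_untreated. Only WT_PBS replicate 3 reached into the VDRcKO_Oxarol range. Krt26, the cuticle keratin, was 36.1, 14.1 and 3.45 FPKM in VDRcKO_Oxarol, 1.93, 0 and 0 in WT_Oxarol, 0, 0.0297 and 7.02 in WT_PBS and 0, 0.0787 and 6.84 in WT_untreated. Replicate 3 of WT_PBS and of WT_untreated lay above the lowest VDRcKO_Oxarol library.

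Tchh followed the keratins. It was 182, 88.7 and 33.7 FPKM in VDRcKO_Oxarol, 10.2, 3.09 and 1.98 in WT_Oxarol, 1.59, 2.295 and 41.4 in WT_PBS and 1.40, 1.97 and 26.7 in WT_untreated. WT_PBS replicate 3 exceeded the lowest VDRcKO_Oxarol library and no other wild type library did. Krt75, the companion layer keratin, had the narrowest range of the 9 tested members on the log2 scale. Krt75 was 7.46, 4.46 and 2.04 FPKM in VDRcKO_Oxarol, 1.51, 1.02 and 1.17 in WT_Oxarol, 1.06, 1.14 and 2.67 in WT_PBS and 1.42, 1.79 and 2.47 in WT_untreated. It was above 0 in all 12 libraries.

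Within VDRcKO_Oxarol the 3 libraries differed widely and in the same order for every member. Replicate 1 exceeded replicate 3 by 3.66-fold for Krt75 to 15.1-fold for Krt72, with a median of 5.97-fold. VDRcKO_Oxarol replicate 3 and WT_PBS replicate 3 were close: their ratio ran from 0.492 for Krt26 to 1.34 for Krt74, with a median of 0.789, and the wild type library was the higher one for 7 of 10 members. WT_Oxarol replicate 1 was the highest WT_Oxarol library for 10 of 10 members. In bulk tissue, fewer cells of a type and less RNA per cell cannot be told apart.

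Against WT_Oxarol, the comparison of genotypes under the same ointment, 6 of the 9 tested members rose in VDRcKO_Oxarol and 0 fell (limma, adjusted p under 0.05 over 14059 genes). Over all genes, 8.71% were called higher and 4.43% lower. Krt71 rose by 5.54 ± 1.58 (SE) on the log2(FPKM + 1) scale (limma, adjusted p = 0.0448), Krt25 by 3.67 ± 0.72 (limma, adjusted p = 0.0151) and Tchh by 4.01 ± 1.19 (limma, adjusted p = 0.04999). Krt73 rose by 3.71 ± 1.09, Krt28 by 2.99 ± 0.86 and Krt75 by 1.22 ± 0.34, at limma adjusted p of 0.0492, 0.0456 and 0.0408. The rest did not pass: Krt27 differed by 4.96 ± 1.498 (limma, adjusted p = 0.0526), Krt72 by 2.42 ± 0.74 (0.0552) and Krt26 by 3.24 ± 1.06 (0.0675). The members' median was 3.67, and that of all genes 0.08. For 9 of 9 tested members the groups did not overlap, as for 27.9% of all genes in this direction, and Krt74 did not overlap either. Of the 9 tested members, 8 would also have passed the filter on wild type libraries alone; Krt72 passed only through VDRcKO_Oxarol.

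The number of calls rested on single libraries. It was 9 without WT_untreated replicate 3, 8 without WT_untreated replicate 1 and 8 without WT_PBS replicate 3. It was 1 without WT_untreated replicate 2, WT_PBS replicate 1, WT_PBS replicate 2, WT_Oxarol replicate 1, WT_Oxarol replicate 3 or VDRcKO_Oxarol replicate 2, and 0 without WT_Oxarol replicate 2 or VDRcKO_Oxarol replicate 1. Each member stayed above 0 in every alternative fit that gave a value. Within the second library code series alone, where WT_Oxarol has 1 library, Krt71 differed by 6.60, Krt27 by 6.12 and Tchh by 4.80. Each wild type group has 1 library there, so that fit takes its spread from the VDRcKO_Oxarol libraries alone and its calls are not read. With the code series as a term in the fit the 3 values were 3.77, 3.41 and 2.66, and Krt25 differed by 2.99. The fit with the term called no member, and limma adjusted p for Krt71 was 0.198.

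**Figure D2:**
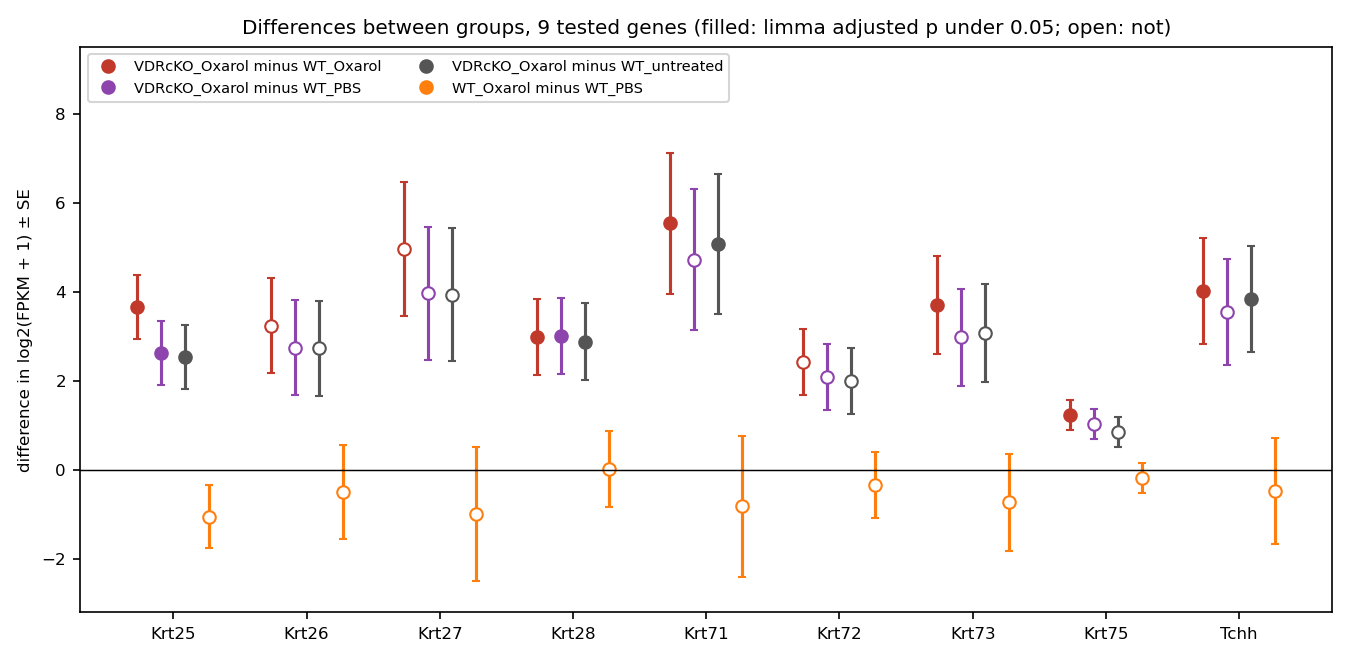
Difference between groups in log2(FPKM + 1), with its standard error, for the 9 tested genes in 4 comparisons; filled points passed limma at an adjusted p under 0.05. The 3 comparisons with VDRcKO_Oxarol lie above 0 for each gene, with Krt71 highest at 5.54 and Krt75 lowest, while WT_Oxarol minus WT_PBS lies between -1.05 and 0.02.

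Against WT_PBS the same VDRcKO_Oxarol libraries enter again, so the comparison is not a second experiment. Krt25 rose by 2.62 ± 0.72 (limma, adjusted p = 0.0345) and Krt28 by 3.01 ± 0.86 (limma, adjusted p = 0.0392), 2 of 9 tested members, against 10.8% of all genes called higher; 0 fell, against 5.49% lower. Krt71 differed by 4.72 ± 1.58 (limma, adjusted p = 0.0642), Tchh by 3.54 ± 1.19 (0.0650) and Krt75 by 1.04 ± 0.34 (0.0583). Krt27, Krt26, Krt73 and Krt72 differed by 3.97, 2.75, 2.98 and 2.09, with adjusted p between 0.0766 and 0.0984. The groups did not overlap for 2 of 9 tested members, Krt25 and Krt71, against 31.0% of all genes. Without WT_PBS replicate 3 the call count was 8, and without WT_untreated replicate 3 or VDRcKO_Oxarol replicate 3 it was 4. It was 1 without WT_Oxarol replicate 1 or WT_Oxarol replicate 2 and 0 without WT_PBS replicate 1, WT_PBS replicate 2, VDRcKO_Oxarol replicate 1 or VDRcKO_Oxarol replicate 2. Within the second code series alone, where WT_PBS has only its replicate 3, the differences shrank to between 0.50 and 1.30.

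Against WT_untreated, 4 of 9 tested members rose and 0 fell, where 12.8% of all genes were called higher and 6.20% lower. They were Krt71 by 5.08 ± 1.58 (limma, adjusted p = 0.0474), Tchh by 3.83 ± 1.19 (limma, adjusted p = 0.0472), Krt28 by 2.88 ± 0.86 (limma, adjusted p = 0.0411) and Krt25 by 2.54 ± 0.72 (limma, adjusted p = 0.0345). Krt27, Krt73, Krt26, Krt72 and Krt75 differed by 3.94, 3.07, 2.73, 1.99 and 0.86, with adjusted p between 0.0718 and 0.0944. The groups did not overlap for 4 of 9 tested members, against 24.4% of all genes. Within the second code series alone, where WT_untreated has only its replicate 3, the differences shrank to between 0.58 and 2.13. They were 2.13 for Krt71, 1.76 for Krt28, 1.63 for Krt25 and 1.58 for Tchh. The call count was 8 without WT_untreated replicate 3 and 6 without WT_PBS replicate 3. It was 2 without WT_PBS replicate 1, 1 without WT_PBS replicate 2 or any 1 WT_Oxarol library, and 0 without WT_untreated replicate 1, WT_untreated replicate 2, VDRcKO_Oxarol replicate 1 or VDRcKO_Oxarol replicate 2. Against all 9 wild type libraries at once, Krt25 and Krt71 alone of the 9 tested members did not overlap, beside 15.0% of tested genes. Krt74, which was not tested, did not overlap either.

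**Figure D3:**
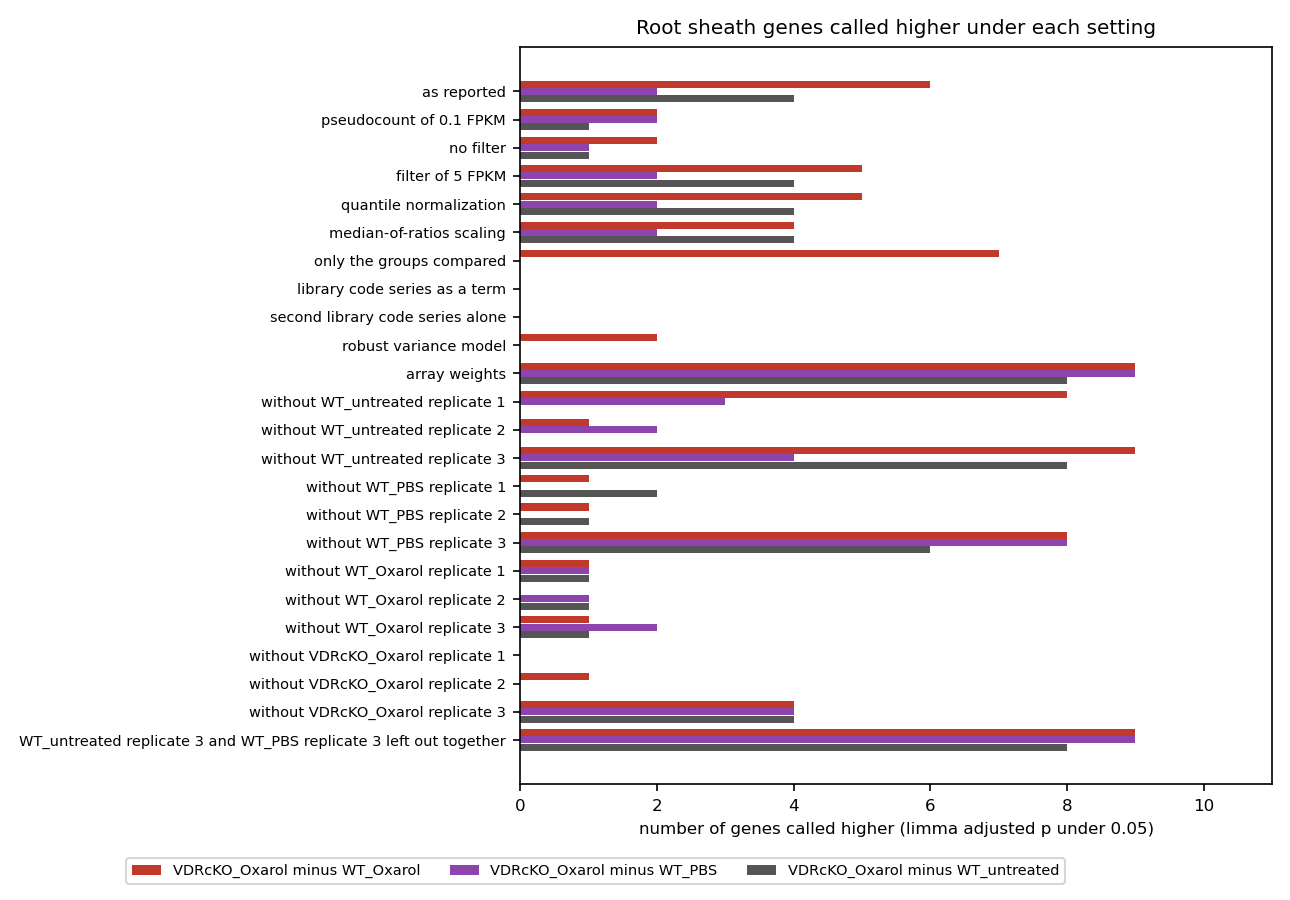
Number of the tested genes called higher in VDRcKO_Oxarol (limma, adjusted p under 0.05) against each wild type group, as reported and under each alternative setting; empty rows are counts of 0. The counts as reported are 6, 2 and 4, and they run from 0 to 9.

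In wild type skin the ointment did not move any member past the test. WT_Oxarol minus WT_PBS gave 0 of 9 calls in either direction and 0 at an unadjusted p under 0.05 (limma), beside 0.306% of all genes called; DESeq2 and edgeR were not run because the files hold no counts. Krt25 differed by -1.05 ± 0.72, Krt27 by -0.99 ± 1.498, Krt71 by -0.82 ± 1.58 and Tchh by -0.47 ± 1.19, with a lowest adjusted p of 0.891. WT_PBS replicate 3 set the sign for 3 of these: without it Krt27 differed by 0.61, Krt71 by 0.90 and Tchh by 0.82. The code series gave opposite signs. Within the first, Krt27, Krt71 and Tchh differed by 1.19, 1.43 and 1.21, and no member was called. Within the second, with 1 library in each wild type group, they differed by -5.35, -5.30 and -3.83. WT_PBS minus WT_untreated also gave 0 of 9 calls and 0 at an unadjusted p under 0.05, with a median of -0.03, beside 0.00711% of all genes called. Standard errors ran up to 1.58 on the log2 scale, so differences of that size, and larger ones, could have been missed here. In WT_Oxarol minus WT_PBS even Krt15, a keratin outside the members, did not pass at -0.84 ± 0.18 (limma, adjusted p = 0.103).

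The type I and type II inner root sheath keratins were compared as sums, since their proteins pair. In libraries with more than 10 FPKM of type II keratin, Krt25 to Krt28 summed to 1.11 to 1.72 times Krt71 to Krt74. The sums were 397 and 328 FPKM in VDRcKO_Oxarol replicate 1, 183 and 165 in replicate 2 and 65.9 and 58.2 in replicate 3. They were 87.4 and 62.7 FPKM in WT_PBS replicate 3, 60.3 and 37.9 in WT_untreated replicate 3 and 21.1 and 12.3 in WT_Oxarol replicate 1. The ratio was 1.11 to 1.21 in VDRcKO_Oxarol and 1.39 to 1.72 in these 3 wild type libraries, with no overlap; this difference was seen in the data and not tested. Krt71 made up 79.3%, 81.6% and 84.6% of the type II sum in VDRcKO_Oxarol and 70.4%, 76.9% and 72.7% in the 3 wild type libraries. Krt73 made up 12.0% to 14.7% in VDRcKO_Oxarol and 18.9% to 22.2% in those wild type libraries. Tchh stood at 0.660 to 0.699 of the Krt71 level in VDRcKO_Oxarol and at 0.999, 0.858 and 1.14 of it in WT_untreated replicate 3, WT_PBS replicate 3 and WT_Oxarol replicate 1.

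**Figure D4:**
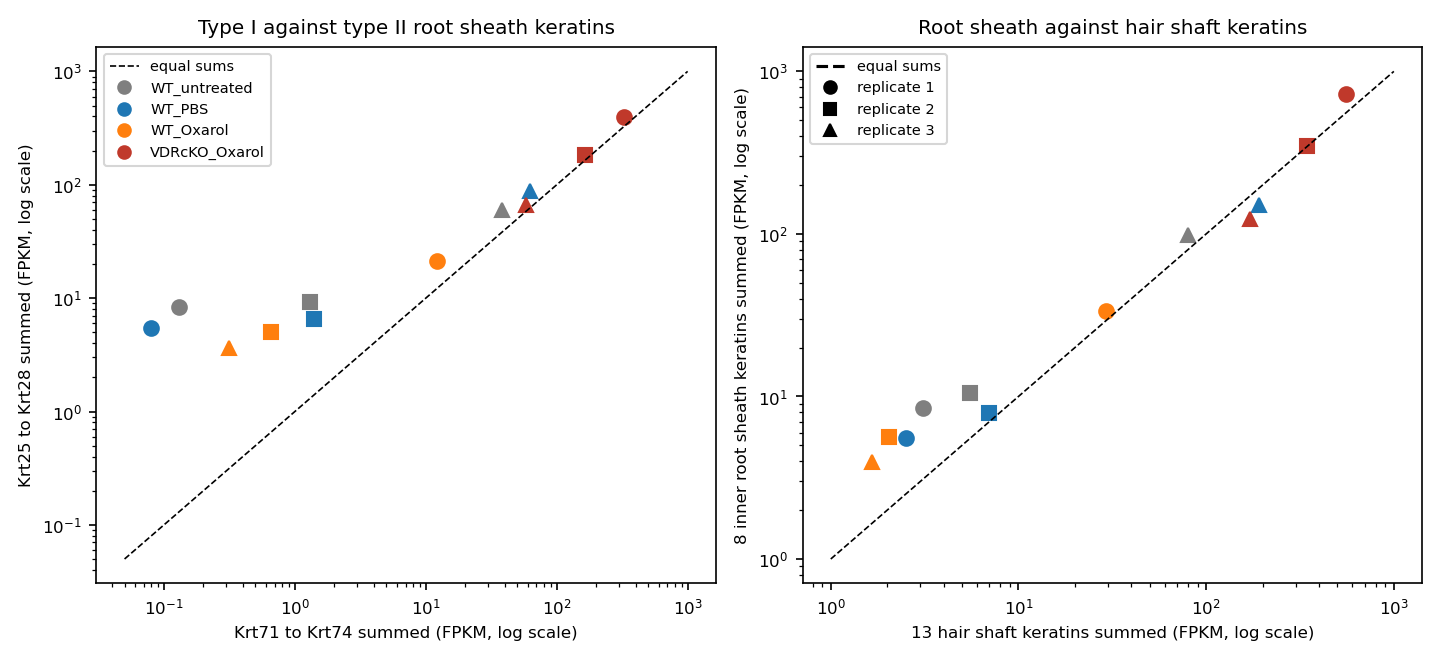
Left, summed FPKM of Krt25 to Krt28 against that of Krt71 to Krt74 per library; right, summed FPKM of the 8 inner root sheath keratins against that of 13 hair shaft keratins; log axes, with a dashed line of equal sums. The VDRcKO_Oxarol libraries lie close to the line in both panels, and in the left panel the 6 lowest wild type libraries lie far above it, at type II sums of 1.39 FPKM or less.

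In the 6 other wild type libraries the type I sum was 3.62 to 9.17 FPKM against a type II sum of 0.0796 to 1.39 FPKM, and Krt25 carried most of it. Krt25 there was 0.240% to 0.320% of the level of Krt15, a keratin of the outer root sheath and basal layer, while Krt27 was 0.0927 to 1.14 FPKM. In VDRcKO_Oxarol Krt25 was 10.2%, 5.49% and 2.54% of Krt15. Krt25 transcripts share 10 of 1940 stretches of 50 bases (0.516%) with Krt15, 8.61% with Krt27 and 1.96% with Krt28 in the GENCODE transcripts given. Whether reads of Krt15, at 814 to 2482 FPKM, contribute to the low values of Krt25 was not tested. Krt25 and Krt27, which share the most, are therefore uncertain relative to each other. With any other gene, Krt25 shares 10.9% of its stretches and Krt27 11.1%. Krt75 and Tchh share no such stretch with another gene. For the members besides these the share ran from 0.155% in Krt72 to 2.43% in Krt74. Krt26 shares only 0.300% of its stretches, but with 267 genes outside the members.

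**Figure D5:**
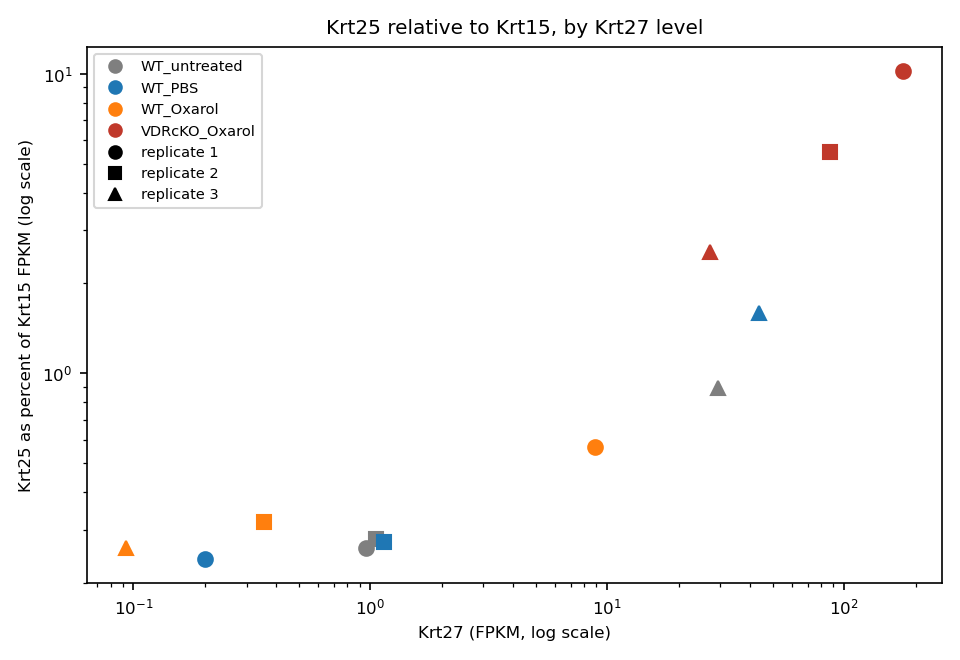
Krt25 as a percentage of Krt15 FPKM against the Krt27 level, per library, on log axes. In the 6 libraries with Krt27 at 1.14 FPKM or less the ratio stays between 0.240% and 0.320%, and it reaches 10.2% in VDRcKO_Oxarol replicate 1.

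Hair shaft keratins, which build the hair inside the sheath, moved in the same libraries. Of 12 tested, 11 rose against WT_Oxarol and 0 fell (limma), with a median of 3.78, beside 8.71% of all genes called higher. Of the 11, 5 (Krt35, Krt82, Krt83, Krt84 and Krt85) passed the filter only through VDRcKO_Oxarol, the group where they are high, so neither the count nor the median is support; 6 would have passed on wild type libraries alone. Krt32 rose by 2.54 ± 0.38 (limma, adjusted p = 0.00721), Krt35 by 2.88 ± 0.51 (0.0113), Krt83 by 3.86 ± 0.73 (0.0138) and Krt82 by 1.82 ± 0.35 (0.0145). The 8 inner root sheath keratins summed to 725, 348 and 124 FPKM in VDRcKO_Oxarol, beside 557, 343 and 172 for the shaft. The corresponding sums were 98.3 and 80.3 FPKM in WT_untreated replicate 3, 150 and 192 in WT_PBS replicate 3 and 33.4 and 29.3 in WT_Oxarol replicate 1. The other wild type libraries held 3.94 to 10.5 FPKM of sheath keratin and 1.66 to 6.98 FPKM of shaft keratin. The part of hair shaft RNA in the difference between groups was not tested.

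Genes flanking the keratin runs did not share the pattern. Krt10 was 3105 to 3881 FPKM in VDRcKO_Oxarol and 3535 to 4262 in WT_Oxarol, and Krt5 was 456 to 519 and 445 to 630. Krt24 was 19.7 to 28.8 FPKM in VDRcKO_Oxarol and 15.6 to 31.4 in WT_Oxarol. Krt2 was 2098 to 2741 FPKM in VDRcKO_Oxarol and 3255 to 4769 in WT_Oxarol, and it is listed at 0 in WT_PBS replicate 3. Beside Tchh, both relatives of trichohyalin rose against WT_Oxarol. Tchhl1 rose by 3.63 ± 0.99 (limma, adjusted p = 0.0402) and Rptn, which encodes repetin of the cornified envelope, by 0.53 ± 0.10 (limma, adjusted p = 0.0148). Rptn did not share the members' order, at 5.24, 5.66 and 5.81 FPKM in VDRcKO_Oxarol replicates 1 to 3. Unlike the members, Rptn was also called higher in WT_Oxarol than in WT_PBS, by 0.72 ± 0.10 (limma, adjusted p = 0.0168). Crnn, which encodes cornulin, rose against WT_Oxarol by 3.62 ± 1.02 (limma, adjusted p = 0.0433), with Flg2 at 0.62 (0.0768). In all, 3 of 5 tested relatives rose against WT_Oxarol, beside 8.71% of all genes called higher.

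Enzymes that modify trichohyalin or cross-link cornified cells gave 1 call of 6 tested, beside 8.71% of all genes called higher. Padi1, also listed, stayed below 1 FPKM and was not tested. It was 0.671, 0.685 and 0.821 FPKM in VDRcKO_Oxarol and 0.146, 0.128 and 0.105 in WT_Oxarol. Padi3, the deiminase known for trichohyalin, rose by 2.302 ± 0.57 (limma, adjusted p = 0.0299), but it passed the filter only through VDRcKO_Oxarol. It stood at 15.05, 6.42 and 2.44 FPKM in VDRcKO_Oxarol and at 0.581, 0.462 and 0.476 in WT_Oxarol, and reached 2.33 in WT_PBS replicate 3. Its lowest VDRcKO_Oxarol value thus lay close to that wild type library. Padi4 differed by 0.81 (limma, adjusted p = 0.0675), Padi2 by 0.61 (0.207) and Tgm3, the transglutaminase of the inner root sheath, by -0.31 (0.265).

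Of 13 regulators of the root sheath and hair matrix, 4 rose against WT_Oxarol and 0 fell, with a median of 0.45. Over all genes, 8.71% were called higher and 4.43% lower. Sox21, a transcription factor of the hair shaft cuticle, rose by 1.21 ± 0.17 (limma, adjusted p = 0.00533). Hoxc13, which drives hair keratin genes, rose by 0.77 ± 0.17 (limma, adjusted p = 0.0196), Notch1 by 0.62 ± 0.15 (0.0269) and Dlx3 by 0.75 ± 0.21 (0.0423). Gata3, a factor needed for the inner root sheath and also made in the epidermis, is given because of the AGATAA letters and was chosen after its values were seen. It was 123 to 126 FPKM in VDRcKO_Oxarol and 134 to 228 in WT_Oxarol. These Gata3 groups did not overlap, in the opposite direction to the keratins, and the difference did not pass (-0.50 ± 0.16, limma, adjusted p = 0.0666). Gata3 was called lower against WT_PBS (-1.11 ± 0.16, limma, adjusted p = 0.00396) and against WT_untreated (-1.01 ± 0.16, limma, adjusted p = 0.00528). Those 2 comparisons hold genotype and ointment together.

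Keratins of the outer root sheath and companion layer divided. Of 8 tested, 2 rose: Krt17 by 1.30 ± 0.18 (limma, adjusted p = 0.00559) and Krt79, a keratin of the upper follicle, by 1.01 ± 0.13 (limma, adjusted p = 0.00349). Krt16 differed by -0.74 (0.0657) and Krt6b by -1.32 (0.0693); Krt6a and Krt6b are near copies, so their values are uncertain. The median of this list was -0.18 and 0 fell, where 8.71% of all genes were called higher and 4.43% lower.

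Markers of other cell types were counted in the same comparison, where 8.71% of all genes were called higher and 4.43% lower. Among melanocyte genes 0 of 5 rose and Mlana fell, in proliferation 0 of 6 rose and Pcna and Mcm6 fell, in epidermis Ivl rose of 7, and in the sebaceous gland (8 tested) and dermal papilla (5 tested) 0 rose and 0 fell. Summed proliferation markers were 124 to 127 FPKM in VDRcKO_Oxarol and 176 to 186 in WT_Oxarol. Summed sebaceous markers were 2413 to 2625 FPKM and 2463 to 3516, and summed melanocyte markers 42.5 to 45.0 and 46.3 to 57.7. Within the melanocyte sum, Mlana averaged 13.9 FPKM in VDRcKO_Oxarol and 27.5 in WT_Oxarol. The other tested melanocyte genes were not lower as a set: Pmel averaged 5.60 and 4.01, Tyrp1 5.25 and 4.48, Dct 12.3 and 11.2, and Tyr 5.74 and 5.86. The part of any of these cell types in the result was not tested.

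The genes most alike in pattern were ranked by the root mean square difference from the members' mean, in centred log2 values over 12 libraries. The 8 closest were Gm11568, Krtap4-2, Krtap4-16, Tchhl1, Crnn, Krtap4-9, Krt34 and Krtap4-7, at 0.166, 0.174, 0.185, 0.203, 0.206, 0.269, 0.272 and 0.281 log2 units. Krtap genes encode the matrix proteins of the hair shaft, and members of this family can share reads. On the same measure the tested members themselves lay between 0.158 for Krt73 and 1.24 for Krt75, and 7 of 9 were farther from their own mean than any of these 8 genes. The 8 genes were picked for the smallest distances of all tested genes outside the members, so this count does not compare likeness.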

How the data were processed

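Ear skin RNA of 12 libraries was sequenced; the build mm9 and the tools Cufflinks 2.1.1, TopHat2 2.0.8 and Bowtie2 2.1.0 are named in the submitters' processing notes, without roles or settings. The authors deposited 1 value per symbol and library, taken as FPKM from Cufflinks and the range of values, since the headers name no unit. Coordinates and promoter sequences are RefSeq's on GRCm38.p6 and carry no signal from the files. The sources do not state strand, so reads of a gene and of an overlapping or antisense partner cannot be told apart.

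A gene was tested when it reached 1 FPKM in 3 or more of 12 libraries (14059 genes). The scale was log2(FPKM + 1) and the tool limma 3.58.1 under R 4.3.3, with 4 group means in 1 model (residual degrees of freedom 8), a variance trend, and Benjamini-Hochberg adjustment over all tested genes at 0.05. Fold changes on this scale understate those of low genes. The fit was tested on simulated data. Members, lists and tests were chosen with earlier results of these data known. All 10 members are named, with up to 4 genes per list by adjusted p and the 8 most alike genes; the flanking genes (by position) and Gata3 were added after their values could be seen. The lists (regulators, enzymes, outer root sheath and companion layer, hair shaft, trichohyalin relatives, melanocyte, proliferation, sebaceous gland, epidermis, dermal papilla) were described by counts. Alternatives were no filter, a filter at 5 FPKM, a pseudocount of 0.1, 2 other scalings, other variance models, only the groups compared, the code series, and leaving out libraries. No counts were used, so count tests were not run. Figures were drawn with matplotlib 3.10.9 in Python 3.11.15.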

Additional observations from a re-analysis of the deposited data

How the results depend on the processing

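The count of members called higher in VDRcKO_Oxarol was 6 against WT_Oxarol, 2 against WT_PBS and 4 against WT_untreated. With a pseudocount of 0.1 it was 2, 2 and 1, with no filter 2, 1 and 1 (10 members tested), with a robust variance model 2, 0 and 0, and with only the groups compared 7, 0 and 0. It was 0 in all 3 comparisons with the code series as a term. Calls within the second code series alone are not read, because each wild type group has 1 library there. The count was 9, 9 and 8 with array weights and the same when replicate 3 was dropped from both WT_untreated and WT_PBS. Leaving out 1 library gave 0 to 9, 0 to 8 and 0 to 8. A filter of 5 FPKM (5, 2 and 4), quantile normalization (5, 2 and 4) and median-of-ratios scaling (4, 2 and 4) stayed within 1.5 times. The cause of these shifts was not tested. All 205 member-by-alternative fits of each of the 3 comparisons lay above 0. In WT_Oxarol minus WT_PBS no setting called a member, but signs turned: in the first code series alone Krt27 was 1.19, Krt71 1.43 and Tchh 1.21, and in the second alone -5.35, -5.30 and -3.83, with Krt25 at -3.03. Without WT_PBS replicate 3, alone or with WT_untreated replicate 3, they were 0.61, 0.90 and 0.82, and with array weights Tchh was 0.045. Leaving out 1 library gave -1.997 to 0.61 for Krt27, -1.88 to 0.90 for Krt71 and -1.20 to 0.82 for Tchh. The calls of Padi3 were lost in 9 of 22 alternatives, of Tchhl1 in 11, of Crnn in 13 and of Dlx3 in 14 of 23. Those of Mcm6, Mlana, Notch1, Rptn and Pcna were lost in 13, 8, 7, 6 and 5 of 23. Over all genes the number called ran from 53 to 3648 against WT_Oxarol (1848 as reported), from 86 to 5427 against WT_PBS (2286) and from 104 to 3346 against WT_untreated (2668). For WT_Oxarol minus WT_PBS it ran from 0 to 360 (43) and for WT_PBS minus WT_untreated from 1 to 85 (1). No paired analysis was possible because the replicate numbers follow deposit order and no label ties a number to an animal or litter. In wild type, replicate 3 coincides with the second code series; that series, which holds all VDRcKO_Oxarol libraries, was used as a term as above. Depth is unknown beyond the relative estimate, and values near 0 carry no interval.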

Other observations

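The lists behaved as follows in the comparisons that share the VDRcKO_Oxarol libraries. Hair shaft keratins rose in 8 of 12 tested against WT_PBS and in 11 of 12 against WT_untreated (limma), 5 of the 12 having passed the filter only through VDRcKO_Oxarol. Over all genes, 10.8% were called higher and 5.49% lower against WT_PBS, and 12.8% and 6.20% against WT_untreated. Enzymes rose in 2 of 6 in each of these comparisons, and trichohyalin relatives in 1 of 5 and 2 of 5. In each comparison 1 of the 2 enzymes was Padi3, which passed the filter only through VDRcKO_Oxarol, so the enzyme count is not support. Of the 13 regulators, 2 rose and 1 (Gata3) fell against WT_PBS, and 3 rose and 1 (Gata3) fell against WT_untreated. Outer root sheath and companion layer keratins rose in 2 and fell in 1 of 8 against WT_PBS, and rose in 4 and fell in 1 of 8 against WT_untreated.

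Within the hair shaft and sheath keratins, ratios between single genes also differed by library. Krt71 stood at 35.8, 19.4 and 20.7 times Krt35 in WT_untreated replicate 3, WT_PBS replicate 3 and WT_Oxarol replicate 1, and at 19.4, 15.7 and 15.6 times in VDRcKO_Oxarol. Krt33a stood at 36.8, 27.3 and 22.6 times Krt35 in the same wild type libraries and at 12.3, 10.1 and 13.5 times in VDRcKO_Oxarol. The ratios of Krt33a to Krt35 did not overlap between these 2 sets, and the difference was chosen after seeing it and not tested. The Krt33a levels themselves overlapped, at 27.5, 67.8 and 9.73 FPKM in these wild type libraries and 164, 86.8 and 42.7 in VDRcKO_Oxarol. Krt35, the divisor in both ratios, was only 0.747, 2.49 and 0.431 FPKM in these wild type libraries. It passed the filter only through VDRcKO_Oxarol.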
